A study of Mus musculus with 3 samples.

Results

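Collagens are the trimeric proteins of the extracellular matrix, and the genes described here encode their alpha chains. The members were all genes whose symbol is Col, a number, a and a number, as found by matching the accession of each non-control array probe to RefSeq. This gave 42 genes with 70 probes, out of 18350 genes with 26918 named probes on the arrays. RefSeq's gene table listed 44 such genes, and Col12a1 and Col6a3 had no named probe. By class, 11 members encode fibrillar chains, 8 chains of basement membranes, 8 fibril-associated chains and 15 chains of other types.

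RNA from 3 cultures of C2C12, an established mouse myoblast line, was hybridised to 1 one-colour array each, all on 1 slide. The first culture held untreated myoblasts. The second held cellulates, mononucleate cells obtained by breaking up myotubes with the microtubule drug myoseverin, which were then given BIO, an inhibitor of glycogen synthase kinase 3. The third held such BIO cellulates after a further 7 days in a neurogenic medium. The myotubes behind both cellulate groups had been formed from C2C12 in 2% horse serum over 8 days, with 10 µM AraC from day 2 to day 4 to remove dividing myoblasts. Myoseverin was given for 48 h, at 20 µM according to the series text and 30 µM according to the protocol, and BIO began 24 h later. BIO was given for 2 days, at 2.5 µM in the sample labels but at 10 µM in the protocol and series text. The neurogenic culture was seeded on laminin and received 250 nM reversine for 48 h, and N2 supplement with 1.5 µM all-trans retinoic acid for 7 days. With untreated myotubes and untreated cellulates not analysed here, myotube formation, AraC, myoseverin and BIO cannot be told apart in the first comparison. Medium, laminin, reversine, retinoic acid and time cannot be told apart in the second. Nothing states how many dishes each RNA came from, and no group has a second array, so no test between groups was possible.

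A collagen molecule is a triple helix wound from alpha chains that can be products of 1 or of several genes. The fibrillar types form the tensile fibrils of connective tissue, with type I the bulk protein, type III its partner in pliable tissue, and type V the regulator of fibril width. Type IV forms the sheet-like network of basement membranes, such as the one that wraps each muscle fibre, and fibril-associated types bind to fibril surfaces. Chains are hydroxylated, chaperoned and assembled in the endoplasmic reticulum, then trimmed and crosslinked outside the cell.

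RefSeq promoter windows of assembly GRCm38.p6 were given for 34 of the 42 genes. The windows of 3 fibrillar genes are printed because these genes behaved differently on the arrays: Col3a1 was higher in both cellulates than in myoblasts, Col5a1 was lower, and Col1a2 differed least among the bright fibrillar genes. They were chosen after their values were seen. Each is the 250 bases before the annotated start, 5′ to 3′ on the gene's strand: chr1:45311288-45311537, plus strand, for Col3a1, chr6:4505368-4505617, plus strand, for Col1a2 and chr2:27886175-27886424, plus strand, for Col5a1. Capitals mark the CCAAT box, the TATA box letters TATAAA and the GC box letters GGGCGG, each on either strand, and no marked motif overlapped another.
Col3a1: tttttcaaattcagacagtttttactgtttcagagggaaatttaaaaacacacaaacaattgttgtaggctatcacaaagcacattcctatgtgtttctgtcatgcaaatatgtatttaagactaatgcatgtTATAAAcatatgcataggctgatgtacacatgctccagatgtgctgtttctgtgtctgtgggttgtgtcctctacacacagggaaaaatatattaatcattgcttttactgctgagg
Col1a2: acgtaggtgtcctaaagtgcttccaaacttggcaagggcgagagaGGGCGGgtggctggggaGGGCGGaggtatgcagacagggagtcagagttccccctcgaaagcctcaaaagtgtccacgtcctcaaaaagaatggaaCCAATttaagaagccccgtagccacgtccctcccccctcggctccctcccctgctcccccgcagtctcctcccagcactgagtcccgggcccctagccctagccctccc
Col5a1: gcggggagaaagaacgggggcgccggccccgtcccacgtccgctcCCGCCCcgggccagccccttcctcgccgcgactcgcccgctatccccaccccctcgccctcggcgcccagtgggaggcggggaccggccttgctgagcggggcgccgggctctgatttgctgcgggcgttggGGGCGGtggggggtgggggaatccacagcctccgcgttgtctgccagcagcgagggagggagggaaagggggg

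The Col3a1 window was the AT-rich one, with 35.2% G and C against 62.0% for Col1a2 and 76.4% for Col5a1. It held 1 TATAAA, whose first base lay 117 bases before the start, and 4 matches to CANNTG, the letters of an E-box, while the other two windows held none of either. The Col1a2 window held 1 CCAAT, 109 bases before the start, and 2 GGGCGG at 205 and 188 bases. The Col5a1 window held GGGCGG 73 bases before the start and its reverse complement at 205. Over all 34 collagen windows, 61.8% held GGGCGG against 32.9% of the 27025 windows of the same length in the table. CCAAT was in 35.3% against 34.5%, TATAAA in 14.7% against 13.0%, and CANNTG in 52.9% against 66.0%. These matches are descriptions of letters and were not tested against the array values.

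Signals are processed intensities divided by that array's 75th percentile over non-control spots and put on the log2 scale, called the scaled log2 signal below. A value of 0 therefore means a probe as bright as the array's 75th percentile, which was 181, 115 and 156 intensity units on the myoblast, BIO and neurogenic arrays. Scaled signals of a collagen gene are compared between arrays and not with those of another gene. Between 45.7% and 50.7% of non-control spots were well above background on each array, and no spot was saturated. Of the 42 genes, 31 were well above background on at least 1 array and 29 on all 3. The other 11 gave no signal well above background on any array: Col24a1, Col4a3, Col4a5, Col14a1, Col19a1, Col6a1, Col6a5, Col6a6, Col8a2, Col17a1 and Col28a1. A single probe stood behind 18 genes, and a gene with more took its brightest.

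**Figure D1:**
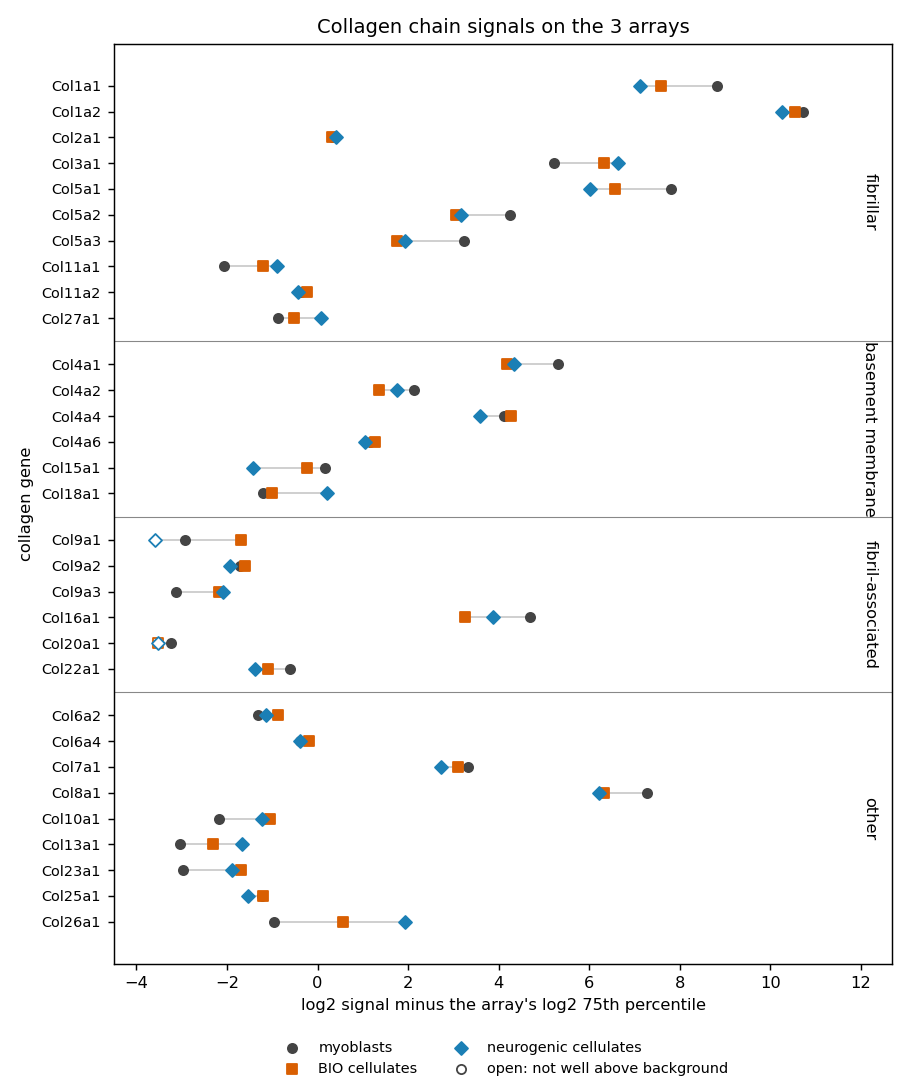
Scaled log2 signal (x axis) of the 31 collagen genes well above background on at least 1 array (y axis, by class), with 1 point per array and open points where the probe was not well above background. Col1a1, Col5a1, Col5a2 and Col5a3 lie to the right in myoblasts, whereas Col3a1 and Col26a1 lie to the left; positions of different genes are not comparable.

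The error within an array was taken from the 245 probes spotted 10 times each. Only spots well above background were used, and probes with few such spots were left out. This error puts the 95% limits for a difference between single spots at 1.41-fold when the BIO and myoblast arrays are compared. The limit is 1.33-fold between the cellulate arrays, and 1.37-fold between the neurogenic and myoblast arrays. These limits cover spot-to-spot error alone and not the spread between cultures. A gene is called different below when its ratio reached 2-fold. In bulk RNA, fewer cells that express a gene and less RNA of it per cell cannot be told apart.

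Against myoblasts, BIO cellulates had higher signals for 5 and lower signals for 6 of the 31 collagen genes compared. This is 35.5% called, where 17.2% of all 12828 genes compared were called. The higher collagen genes were Col3a1, Col9a1, Col10a1, Col23a1 and Col26a1, and over all genes 11.2% were called higher. The lower ones were Col1a1, Col5a1, Col5a2, Col5a3, Col4a1 and Col16a1, and over all genes 6.01% were called lower. The median log2 ratio was 0.10 over the collagens and 0.00 over all genes. The split between higher and lower moved with the scaling: 0 and 10 with the array medians, 7 and 5 with the 75th percentile of probes well above background on all arrays, and 2 and 4 after quantile normalisation. Over all genes the split was 1440 and 771 as reported, and 369 and 3701, 1842 and 554, and 818 and 810 with these scalings.

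Between the cellulates, 2 of 30 collagen genes were called higher in the neurogenic culture, Col18a1 and Col26a1, and 1 lower, Col15a1. This is 10.0% called against 5.96% of all genes, of which 4.16% were higher and 1.80% lower. The median log2 ratio was -0.18 for collagens and -0.17 for all genes. The split was 2 and 2 after quantile normalisation, and 1 and 0 with normexp background correction. Over all genes it was 510 and 220 as reported, and 609 and 218, and 267 and 66, with these settings.

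Set against myoblasts, neurogenic cellulates had 7 collagen genes called higher and 6 lower of 31. This is 41.9% against 22.2% of all genes, of which 12.1% were higher and 10.0% lower. The median log2 ratio was -0.12 for collagens and -0.06 for all genes. The split was 1 and 14 with the array medians, 9 and 3 with the 75th percentile of probes well above background on all arrays, and 3 and 4 after quantile normalisation. Over all genes it was 1557 and 1291 as reported, and 649 and 4997, 2321 and 620, and 1221 and 985 with these scalings. Both comparisons with myoblasts share the myoblast array, and each also shares an array with the comparison between cellulates, so their results are given side by side and not as repeats of each other.

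**Figure D2:**
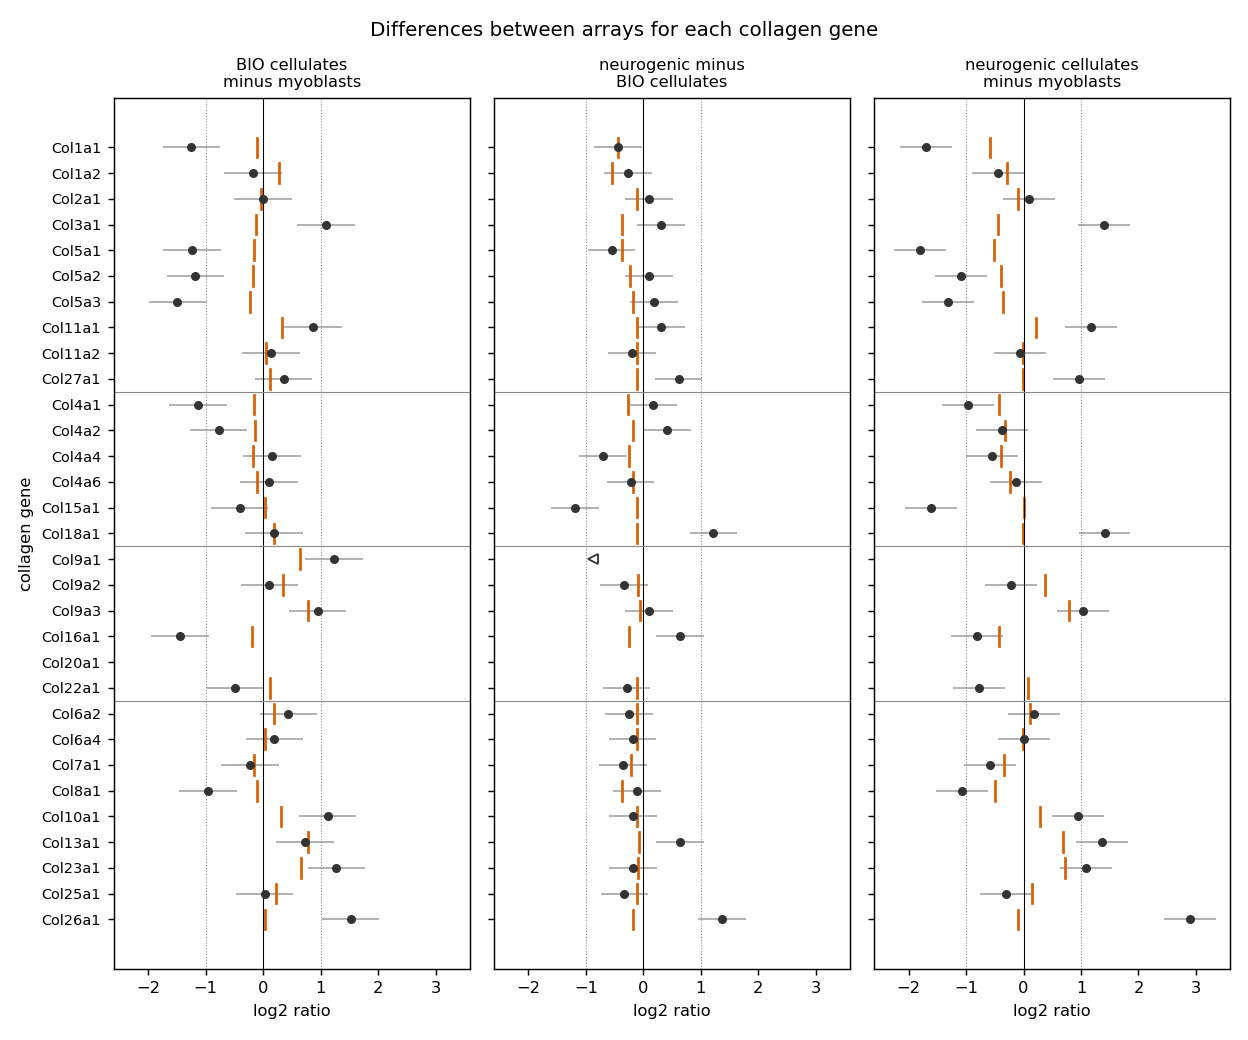
Log2 ratio (x axis) of each collagen gene (y axis) in the 3 comparisons, with bars for the 95% limits of repeat spots, orange marks for the median of all genes of like brightness, dotted lines at 2-fold and an open triangle for a bound. Col1a1, Col5a1, Col5a2 and Col5a3 lie left of -1 in both comparisons with myoblasts, and the points of the middle panel lie closer to 0.

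Of the 10 fibrillar chains compared, 50.0%, 0.0% and 60.0% were called in the 3 comparisons, in the order above. All genes gave 17.2%, 5.96% and 22.2%. Among these chains, Col1a1, the more abundant chain of the type I heterotrimer, had its brightest probe spotted 10 times on each array. Its scaled log2 signal was 8.83 in myoblasts (spot SD 0.097, range 8.69 to 8.95), 7.58 in BIO cellulates (SD 0.10, range 7.42 to 7.72) and 7.13 in neurogenic cellulates (SD 0.068, range 7.03 to 7.23). The spots of the 3 arrays did not overlap. Col1a1 was thus 2.38-fold lower in BIO cellulates than in myoblasts (log2 ratio -1.25, SE over spots 0.044) and 3.25-fold lower in neurogenic cellulates (-1.70, SE 0.037). The second probe gave -1.24 and -1.51 for the same comparisons, and a further probe -1.72 and -1.88. Col1a1 stayed at least 2-fold lower in both comparisons under every alternative processing run. Its further difference between the cellulates, -0.45, lay close to the -0.44 median of genes of like brightness, and it turned positive, up to 0.06, with some scalings.

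**Figure D3:**
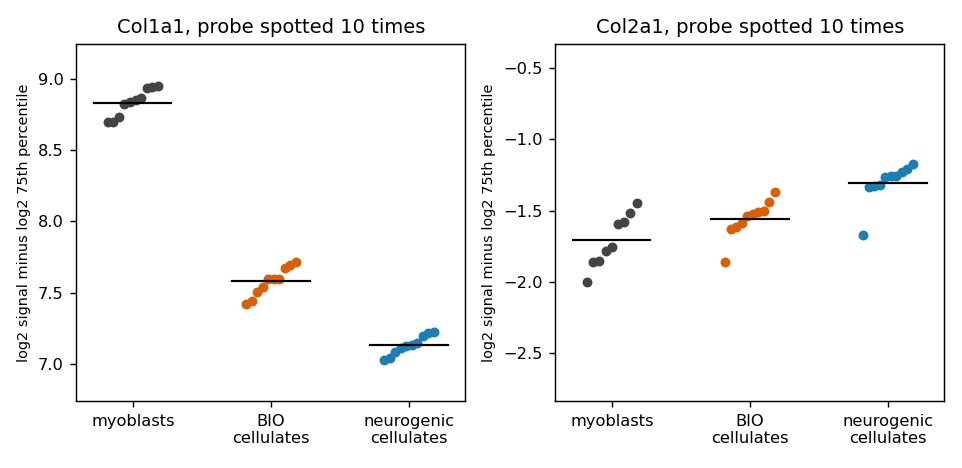
Scaled log2 signal (y axis) of the repeat spots of 1 Col1a1 probe and 1 Col2a1 probe on the 3 arrays (x axis), with bars at the means and the same span on both y axes; 1 myoblast spot of Col2a1 was left out as an outlier. The Col1a1 spots form 3 separate groups, whereas those of the dim Col2a1 probe overlap between arrays.

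Col1a2, the other type I chain, stood at 10.72, 10.54 and 10.27 on the myoblast, BIO and neurogenic arrays. Its log2 ratios to myoblasts were -0.18 and -0.45, both within the repeat-spot limits. The difference between the type I chains does not depend on a scaling constant: relative to Col1a2, Col1a1 was 2.10-fold lower in BIO cellulates and 2.38-fold lower in neurogenic cellulates than in myoblasts. On the log2 scale this difference was -1.07, with a range of -1.07 to -0.59 over the alternatives, and -1.25, with a range of -1.25 to -0.80. The probe of Col1a2 was among the brightest on the arrays, with only 16 genes of like brightness in the first comparison.

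Type III collagen, a homotrimer of Col3a1 chains found with type I in pliable tissue, went the other way. Col3a1 stood at 5.23 in myoblasts, 6.33 in BIO cellulates and 6.63 in neurogenic cellulates, 2.14-fold and 2.64-fold higher than in myoblasts. Its second probe, near background, gave log2 ratios of 0.86 and 1.00 where the first gave 1.10 and 1.40. The sign held under every alternative, although the ratio dropped below 2-fold when arrays were scaled to their medians, at 0.38 and 0.67, and in BIO cellulates with the median over its probes, at 0.98. Relative to Col1a1, Col3a1 was 5.09-fold higher in BIO cellulates and 8.55-fold higher in neurogenic cellulates than in myoblasts.

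The type V chains, which set fibril width from within the fibril, were each lower in both cellulates than in myoblasts. Col5a1 stood at 7.81, 6.57 and 6.02, which is 2.37-fold and 3.47-fold lower, and its second probe gave -0.58 and -1.16 on the log2 scale. With the median over its probes its first ratio was -0.91. Col5a2 stood at 4.25, 3.07 and 3.16, 2.27-fold and 2.12-fold lower, and dropped under 2-fold with 2 and 4 of 9 alternatives, at the least to -0.92 and -0.70. Col5a3 stood at 3.25, 1.75 and 1.94 by its brightest probe, 2.82-fold and 2.48-fold lower, but its second probe went the opposite way, from 0.28 to 1.12 and 0.60. With the median over its probes, Col5a3 gave -0.33 and -0.50 and was not called, and its call in neurogenic cellulates was lost with 4 of 9 alternatives in all. Col5a2 lies next to Col3a1 on chromosome 1, and this neighbouring pair moved apart by 4.85-fold in BIO cellulates and 5.59-fold in neurogenic cellulates. That divergence kept a log2 size of 2.16 to 2.28 and of 2.29 to 2.59 over the alternatives.

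The fibrillar chains best known from cartilage were dim. Col2a1, the chain of type II collagen, stood at 0.31, 0.31 and 0.41, and its second probe, spotted repeatedly, at -1.71, -1.56 and -1.31. Col11a1 stood at -2.07, -1.20 and -0.90, 2.26-fold higher in neurogenic cellulates than in myoblasts, but a second probe put the log2 ratio at -0.26. Col11a2 stood at -0.37, -0.24 and -0.44, within the repeat-spot limits. Col27a1, a fibrillar chain also described in cartilage, stood at -0.88, -0.53 and 0.09, with a log2 ratio of 0.97 between neurogenic cellulates and myoblasts, just under 2-fold.

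Of the basement membrane chains, 1 of 6 was called between BIO cellulates and myoblasts, or 16.7% against 17.2% of all genes. Between the cellulates 33.3% were called against 5.96%, and between neurogenic cellulates and myoblasts 33.3% against 22.2%. Col4a1, which forms the common type IV trimer with Col4a2, stood at 5.31 in myoblasts, 4.18 in BIO cellulates and 4.35 in neurogenic cellulates. It was 2.19-fold lower in BIO cellulates, and its second probe gave -1.44. With 4 of the 9 alternatives this ratio dropped under 2-fold, at the least to -0.86. Col4a2 stood at 2.13, 1.36 and 1.76, with log2 ratios to myoblasts of -0.78 and -0.37. The pair lies head to head on chromosome 8, with annotated starts 21 bases apart and the annotated transcripts overlapping at their starts. The chains' ratios in BIO cellulates differed by 1.28-fold.

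A second Col4a2 probe behaved differently, being well above background on the neurogenic array alone. Its signal there was at least 2.97-fold higher than in BIO cellulates and at least 5.94-fold higher than in myoblasts. Such probes were not rare on that array: 307 probes, 0.746% of all, were well above background there alone and at least 2-fold brighter, against 63 on the BIO array and 112 on the myoblast array.

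Col4a4 and Col4a6, chains of the more restricted type IV networks, were well above background, Col4a4 by its only probe and Col4a6 by its brightest. Col4a4 stood at 4.13, 4.28 and 3.58, and its log2 ratio of -0.70 between the cellulates lay beyond the repeat-spot limit but under 2-fold. Col4a6 stood at 1.16, 1.26 and 1.04, but its other probes passed the background test on no array. The partner chains Col4a3 and Col4a5 passed it on no array by any probe.

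The 2 multiplexins, basement membrane collagens with interrupted helices, differed between the cellulates in opposite directions. Col15a1 stood at 0.17, -0.23 and -1.43, 2.29-fold lower in neurogenic than in BIO cellulates and 3.04-fold lower than in myoblasts. Col18a1, whose C-terminal fragment is endostatin, stood at -1.20, -1.01 and 0.21, 2.33-fold higher than in BIO cellulates and 2.65-fold higher than in myoblasts. The second probe of Col18a1 went the same way with log2 ratios of 1.84 and 2.64. With normexp both dropped under 2-fold between the cellulates, to -0.74 and 0.82. Between neurogenic cellulates and myoblasts, Col15a1 dropped to -0.99 with normexp. There Col18a1 dropped under 2-fold with normexp and with the array medians, at the least to 0.68. Between BIO cellulates and myoblasts the brightest probes gave -0.41 and 0.19, within the repeat-spot limit, while the second probe of Col18a1 gave 0.80, beyond it.

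**Figure D4:**
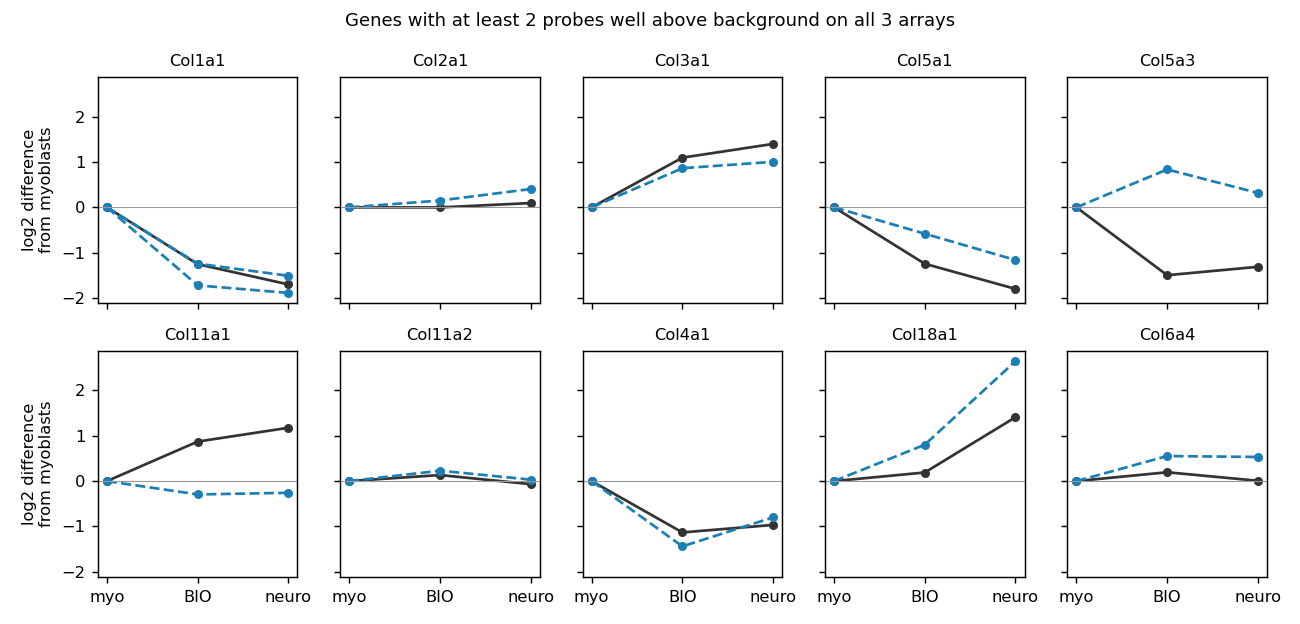
Log2 difference from myoblasts (y axis) on the 3 arrays (x axis) for the 10 collagen genes with at least 2 probes well above background on all arrays, with the brightest probe in black and others dashed. The probes of Col1a1, Col3a1, Col5a1, Col4a1 and Col18a1 keep the same direction, whereas those of Col5a3 and Col11a1 separate.

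Of the 10 genes with at least 2 probes well above background on all arrays, 7 had probes of the same sign between BIO cellulates and myoblasts. The other genes were Col2a1, Col5a3 and Col11a1. Between the cellulates 9 had the same sign, and between neurogenic cellulates and myoblasts 7 did.

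Fibril-associated chains were mostly dim, apart from Col16a1, a chain found in skin and cartilage matrix. Of those compared, 33.3% of 6, 0.0% of 5 and 16.7% of 6 were called in the 3 comparisons. All genes gave 17.2%, 5.96% and 22.2%. Col16a1 stood at 4.70 in myoblasts, 3.26 in BIO cellulates and 3.89 in neurogenic cellulates. It was 2.73-fold lower in BIO cellulates than in myoblasts and stayed at least 2-fold lower under every alternative run. In neurogenic cellulates its log2 ratio was 0.63 to BIO cellulates and -0.82 to myoblasts, both beyond the repeat-spot limit and under 2-fold. The second probe of Col16a1 was not well above background on any array, so these values rest on its brightest probe. Col22a1, known from the myotendinous junction, stood at -0.61, -1.09 and -1.39, with a log2 ratio of -0.77 between neurogenic cellulates and myoblasts.

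The type IX chains, which decorate cartilage fibrils, lay near the detection limit. Col9a1 stood at -2.93 in myoblasts and -1.70 in BIO cellulates, 2.35-fold higher, and was not well above background in neurogenic cellulates, where it was at least 1.83-fold lower than in BIO cellulates. Col9a2 stood at -1.72, -1.61 and -1.94. Col9a3 stood at -3.13, -2.19 and -2.09, 2.06-fold higher in neurogenic cellulates than in myoblasts. Col20a1 passed the background test on the myoblast array alone, at -3.24, which gives no fold. Genes of like brightness had median log2 ratios of 0.64 for Col9a1 in the first comparison and 0.79 for Col9a3 in the third.

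Of the 9 chains of the remaining class compared, 33.3%, 11.1% and 44.4% were called in the 3 comparisons. All genes gave 17.2%, 5.96% and 22.2%. The clearest difference in this class was that of Col26a1, a chain also known as Emid2. Its single probe stood at -0.96 in myoblasts, 0.56 in BIO cellulates and 1.94 in neurogenic cellulates. This was 2.87-fold higher in BIO cellulates than in myoblasts, 2.59-fold higher in neurogenic than in BIO cellulates, and 7.45-fold higher in neurogenic cellulates than in myoblasts. Genes of like brightness had medians of 0.03, -0.18 and -0.10 on the log2 scale. The latter 2 differences stayed at least 2-fold under every alternative, and the first dropped under 2-fold with 2 of 9, at the least to 0.80. It was the only collagen gene called in all 3 comparisons.

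Col8a1, a network-forming chain of vessel wall and Descemet's membrane, stood at 7.28, 6.32 and 6.21, which is 1.95-fold lower in BIO cellulates and 2.10-fold lower in neurogenic cellulates than in myoblasts. The latter call was lost with 4 of 9 alternatives, at the least to -0.57 on the log2 scale. Col7a1, the chain of anchoring fibrils, stood at 3.33, 3.10 and 2.74. Col6a2, of the type VI microfibrils around muscle fibres, stood at -1.31, -0.88 and -1.13, while its partner Col6a1 was not well above background on any array. Col6a4 stood at -0.39, -0.19 and -0.38, and Col25a1, a transmembrane chain needed for motor innervation of muscle, at -1.24, -1.21 and -1.54. None of the values of Col7a1, Col6a2, Col6a4 or Col25a1 differed by 2-fold.

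The dim Col10a1, Col23a1 and Col13a1 had higher scaled signals in cellulates, whereas Col25a1, above, did not. Col10a1, of hypertrophic cartilage, stood at -2.17, -1.04 and -1.23, 2.18-fold higher in BIO cellulates than in myoblasts. Col23a1, a transmembrane chain, stood at -2.97, -1.70 and -1.88, 2.42-fold and 2.12-fold higher than in myoblasts. Col13a1, a transmembrane chain of the neuromuscular junction, stood at -3.04, -2.31 and -1.67, 2.58-fold higher in neurogenic cellulates than in myoblasts. Dim genes in general had higher scaled signals in the cellulates: the 5451 genes well above background on neither array had a median log2 ratio of 1.01 in BIO cellulates against myoblasts, and the 11 such collagens 1.08. In neurogenic cellulates against myoblasts these medians were 1.14 and 1.22. With the median of genes of like brightness subtracted, Col9a1, Col10a1, Col23a1, Col13a1, Col9a3 and Col11a1 were not called in any comparison.

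**Figure D5:**
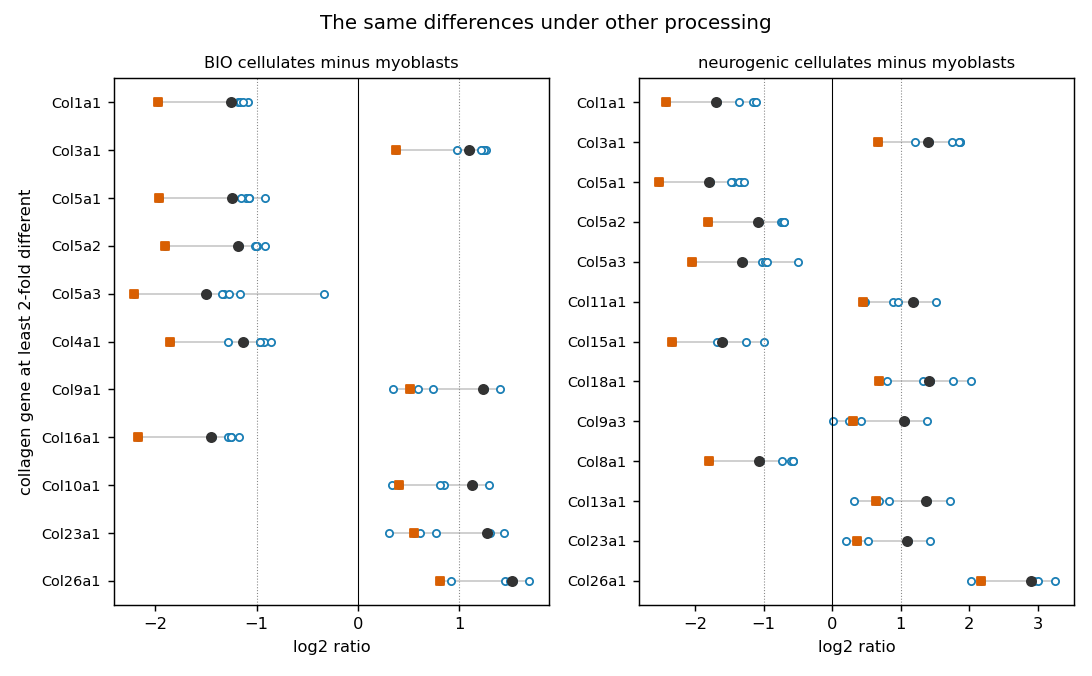
Log2 ratio (x axis) of the collagen genes called different from myoblasts in either cellulate (y axis, 1 panel each), as reported (black), scaled to array medians (orange squares) and under the other alternatives (open circles), with dotted lines at 2-fold. All 11 and all 13 genes keep their sign, whereas Col1a1 and Col16a1 in the first panel and Col1a1, Col5a1 and Col26a1 in the second stay at least 2-fold different throughout.

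The enzymes and chaperones that build procollagen in the endoplasmic reticulum were set beside the chains. Of the 23 on the list, 19 could be compared between BIO cellulates and myoblasts, with 3 called lower, 1 called higher and a median log2 ratio of -0.50, against 0.00 over all genes. The 21.1% called lies near the 17.2% of all genes, with 15.8% called lower against 6.01%. P4ha2 and P4ha3, catalytic subunits of prolyl 4-hydroxylase, were 2.05-fold and 2.64-fold lower, and Serpinh1, the collagen chaperone HSP47, was 2.25-fold lower. P4ha3 stood at 0.93, -0.47 and -2.26 and was 9.17-fold lower in neurogenic cellulates than in myoblasts. In neurogenic cellulates against myoblasts 5 of 20 were called lower and 2 higher, P4hb and Mia3, or 25.0% lower and 10.0% higher where all genes gave 10.0% and 12.1%. Among the lower were P3h1, Colgalt1 and Sec24d, which hydroxylate, glycosylate and export procollagen, at -1.49, -1.28 and -1.40. P4hb, the beta subunit of prolyl 4-hydroxylase, was well above background on the neurogenic array alone, at least 10.9-fold higher than in myoblasts. Its probe was among those 307.

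Genes for trimming and crosslinking were mixed: 2 of 7 compared were called lower and 1 higher in BIO cellulates, or 28.6% and 14.3% against 6.01% and 11.2% of all genes. Loxl1, a lysyl oxidase, was 3.24-fold lower in BIO cellulates (6.27 to 4.57) and 2.03-fold lower in neurogenic cellulates. Loxl2, a related enzyme, gave -1.63 by its brightest probe and -0.30 by its second. Adamts14, a procollagen N-proteinase, was 2.74-fold higher in BIO cellulates, with 0.81 by its second probe, and its relative Adamts2 was 3.35-fold lower in neurogenic cellulates than in myoblasts.

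Proteins that bind or organise fibrils held the largest ratios of these lists. Ogn, the small proteoglycan osteoglycin, stood at -2.70 in myoblasts, 0.06 in BIO cellulates and 2.32 in neurogenic cellulates, 32.4-fold higher than in myoblasts. The myoblast signal was dim, as the lowest one well above background on that array was -3.73. The log2 ratios of Ogn to myoblasts, 2.76 and 5.02, fell at the least to 1.29 and 3.30 under the alternatives. Dcn, or decorin, stood at -0.66, -0.64 and 2.06, so that it was 6.47-fold higher in neurogenic than in BIO cellulates. Postn, or periostin, stood at 3.75, 1.93 and -0.55, and was 19.6-fold lower in neurogenic cellulates than in myoblasts. Comp, a cartilage and tendon glycoprotein that binds fibrils, stood at 0.89, -0.90 and -1.93, 7.06-fold lower. Of the 10 compared, 2 were called higher and 2 lower in BIO cellulates, and 2 higher and 4 lower in neurogenic cellulates, each against myoblasts. These are 40.0% and 60.0% called, where 17.2% and 22.2% of all genes were.

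Among partners of type IV collagen in the basement membrane, 3 of 11 were called lower and 1 higher in BIO cellulates against myoblasts, or 27.3% and 9.09% against 6.01% and 11.2% of all genes. Nid1 and Nid2, the nidogens that link laminin to type IV collagen, were 2.51-fold and 2.36-fold lower, and Pxdn, peroxidasin, which crosslinks type IV collagen, was 2.42-fold lower. Nid2 went on from 3.97 and 2.73 to 0.84 in neurogenic cellulates, 8.71-fold lower than in myoblasts. Agrn, or agrin, was 2.08-fold higher in neurogenic than in BIO cellulates, and Lamb3, a laminin chain, 4.68-fold higher than in myoblasts. Of the collagen receptors, 1 of 7 was called in BIO cellulates (14.3%, against 17.2% of all genes), Adgrg1, which binds type III collagen and was 2.57-fold lower. The integrin chain Itga11 was 2.47-fold lower in neurogenic than in BIO cellulates. Of the 6 collagenases, Mmp14, a membrane-bound enzyme that cleaves fibrillar collagen, was well above background, at 5.69, 4.54 and 4.38, and the other 5 were not on any array. From the enzymes to the collagenases, the lists had 19, 7, 10, 11, 7 and 1 genes compared between BIO cellulates and myoblasts. Between the cellulates they had 19, 7, 10, 12, 6 and 1. Neurogenic cellulates against myoblasts gave 20, 7, 10, 12, 7 and 1. Of these partner genes 17, 13 and 24 were called in the 3 comparisons. From the enzymes to the receptors, 21.1%, 42.9%, 40.0%, 36.4% and 14.3% were called in BIO cellulates against myoblasts. All genes gave 17.2%. Between the cellulates these shares were 15.8%, 14.3%, 50.0%, 25.0% and 16.7%, against 5.96%. In neurogenic cellulates against myoblasts they were 35.0%, 42.9%, 60.0%, 50.0% and 14.3%, against 22.2%. Mmp14 was called lower in both comparisons with myoblasts and was not called between the cellulates. All partner genes called kept their sign under the alternatives run. Among them, 6, 7 and 10 stayed called under each, Postn and Ogn every time.

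Markers of muscle and of other cell types were read on the same arrays. All 7 myoblast and muscle markers were well above background on each array, and their summed level, on the log2 scale, was 7.72 in myoblasts, 10.29 in BIO cellulates and 10.27 in neurogenic cellulates. Such a sum adds probes of unequal brightness and is led by the brightest. Of the 7, 3 were called higher and 1 lower in BIO cellulates, and 4 higher and 1 lower in neurogenic cellulates, with median log2 ratios of 0.74 and 1.12. In BIO cellulates these are 42.9% higher and 14.3% lower, against 11.2% and 6.01% of all genes. In neurogenic cellulates they are 57.1% and 14.3%, against 12.1% and 10.0%. Acta1, skeletal actin, was 55.0-fold and 52.4-fold higher than in myoblasts, whereas Cdh15, the adhesion protein M-cadherin, had log2 ratios of -1.11 and -1.70. The summed fibroblast markers were 0.27, 0.50 and 0.46, with Pdgfra, Dpt and Cd34 well above background on no array. Tcf21 was called higher in neurogenic cellulates than in myoblasts, at a log2 bound of 1.19, and kept this call under 4 of 7 alternatives. This was 1 of 4 fibroblast markers compared, or 25.0% against 12.1% of all genes. Chondrocyte markers summed to 0.07, 0.52 and 0.22, with 4 of 6 well above background on no array, and osteoblast markers to 1.98, 0.76 and 0.85, with Bglap and Ibsp also below that level. Runx2, an osteoblast transcription factor, was 3.21-fold and 2.38-fold lower than in myoblasts, whereas Alpl, alkaline phosphatase, was 2.56-fold higher in BIO cellulates. Runx2 kept its calls under 8 and 6 of 8 alternatives. Alpl kept its call under 5 of 8, with a log2 ratio of 0.32 at the least. Sp7, also on the osteoblast list, was called lower in both cellulates, at log2 bounds of -1.46 and -1.29. It kept these calls under 6 and 5 of 7 alternatives. The 4 endothelial markers were all below the level well above background, at a sum of -2.27, -1.57 and -2.30. Schwann and neuronal markers summed to -0.39, -0.02 and -0.11, with 3 of 5 below it on all arrays and 4 of 5 on each cellulate array. The part of these cell types in the collagen values was not tested.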

How the data were processed

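Gene expression was measured on 3 one-colour Agilent arrays (design 014868), 1 for each of 3 C2C12 cultures. Per the file headers, Feature Extraction 10.7.3.1 gave each spot a processed intensity, background-subtracted and detrended, with flags for signal well above background, and the headers name build mm9. The authors' deposited value table holds log2 values that differ from the scanner's log2 intensity by 1 number per array: 0.00 for myoblasts, 0.67 for BIO and 0.23 for neurogenic cellulates. Scale and direction follow from this match, and the basis of these numbers is unknown. Its columns have medians of 7.42, 7.76 and 7.88.

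Control and outlier spots were left out, spots of a probe were averaged as log2, and each array was scaled to its 75th percentile. Accessions were matched without versions to RefSeq (GRCm38.p6), which named 26918 of 41174 probes. A gene took its brightest probe. A gene well above background on 1 of 2 arrays got a bound, set against the dim probe's own signal or that array's detection floor (its dimmest spot still passing the background test), whichever was higher. Bounds under 1-fold were set to 0 on the log2 scale. Brightness medians used genes within 0.5 on the log2 scale. Quantile and normexp (offset 50) fits used limma 3.58.1 in R 4.3.3, and the rest Python 3.11.15 with pandas 2.3.3. Differences at least 2-fold were counted, without p-values. The calculation was tested on simulated data. Collagen genes well above background on at least 1 array were named, and partner genes where at least 2-fold different, up to 8 a list, fewer here. The members and lists were chosen with earlier results of these data known. The precision is limited by the 1 array per group.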

Additional observations from a re-analysis of the deposited data

How the results depend on the processing

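The number of collagen genes called in BIO cellulates against myoblasts, 11 as reported, was 6 after quantile normalisation (2 higher, 4 lower), 5 with normexp and quantile normalisation (1 and 4), 17 with no filter on dim probes (11 and 6) and 7 with the median of genes of like brightness subtracted (2 and 5). Over all genes, 1440 higher and 771 lower of 12828 were called as reported. In the same order, the settings gave 818 and 810, 355 and 350, 4385 and 1029 of 18348, and 644 and 667 of 11184. For neurogenic against BIO cellulates, 3 as reported became 1 with normexp, 6 with no filter on dim probes and 8 at 1.5-fold. All genes went from 510 higher and 220 lower of 12255 to 267 and 66, 1032 and 619 of 18348, and 1063 and 1268. For neurogenic cellulates against myoblasts, 13 became 7 after quantile normalisation, 4 with normexp (2 and 2), 20 with no filter (14 and 6) and 6 with the brightness median subtracted (3 and 3). Over all genes, 1557 higher and 1291 lower of 12853 were called as reported. In that order the settings gave 1221 and 985, 605 and 480, 5118 and 1538 of 18348, and 954 and 707 of 10885. Scaling to array medians moved the median log2 ratio of the collagens to -0.61 in the first comparison and -0.85 in the third, where it moved the median of all genes by -0.66 and -0.73. Array medians lay at 17.1 to 24.4 intensity units, near the lowest signals well above background. No called collagen gene changed sign: all of the 11, 3 and 13 kept it under the alternatives run, and 2, 1 and 3 of them stayed called under each. The cause of the changes was not tested, beyond the larger number of genes compared without the filter (42) and the lower fold.

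Normexp was planned on mean spot signals; the mean is not among the columns used here, so it was run on median signals, and that setting and the brightness median were chosen after seeing the data. No paired analysis was possible because each group has 1 array. Leaving out a replicate was not possible for the same reason.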
